A study of Mus musculus with 6 samples.

Results

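The genes described here encode the proteins of the cytosolic ribosome. They were taken by symbol from a table of gene-level TPM: every symbol that starts with Rpl or Rps and a digit, together with Rplp0, Rplp1, Rplp2 and Rpsa, without pseudogene symbols containing -ps and without the ribosomal S6 kinases. This gave 89 of the 24493 gene symbols. Of these, 77 are the ribosomal proteins proper, 31 of the small subunit, 43 of the large subunit and 3 of the acidic stalk. The other 12 are duplicates, retrocopies or like-named genes, such as Rpl22l1, Rps27l, Rps4l and Rps19bp1, which encodes a binding partner of Rps19 and no ribosomal protein. Fau, whose fusion protein releases a ribosomal protein, carries another symbol and is not a member.

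The sequenced mRNA came from mouse cells with the label Treg, which had been differentiated in culture from naive CD4 T cells of the spleen. The 6 libraries form 2 genotypes, 3 wild-type (WT) and 3 Ifnar1-SA. Ifnar1 is a subunit of the receptor for type I interferons. The SA allele is described in published work as a knock-in that exchanges serine for alanine in the signal for receptor degradation. No other allele or agent is given for either genotype, and culture conditions, animal ages and batches are not stated in the labels. Nothing in the labels ties the replicates to different mice or cultures. A p-value here therefore reflects the spread among 3 libraries per genotype, which may be technical. The comparison asked how transcript levels differed between WT and Ifnar1-SA cells.

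The ribosome is built from a small subunit, which reads the messenger RNA, and a large subunit, which joins amino acids. Most ribosomal proteins are present in a single copy per ribosome, so the cell needs them in equal numbers, and their messenger RNAs are among the most abundant of a dividing cell. These messages are also controlled together: many begin with a run of pyrimidines (C or T in the DNA) directly at the start of transcription, which ties their translation to the kinase mTORC1. T cells that leave rest make many new ribosomes, and proteins such as Rpl22 are known for roles in T cell development.

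Values are TPM, relative transcript abundances that take transcript length into account, so levels can be compared between genes, while the sequencing depth behind them is unknown. Differences between genotypes are Ifnar1-SA minus WT on the log2(TPM + 1) scale. They were tested with limma over the 12141 genes averaging 1 TPM or more, with Benjamini-Hochberg adjustment over all of them. The T cell genes Cd4 (107.8 to 123.9 TPM), Cd3e (90.25 to 122.5 TPM) and Il2ra (358.8 to 444.2 TPM) were present in every library. Foxp3, the factor that defines Treg cells, was at 0.276 to 0.697 TPM in WT libraries, compared with 0.746 to 1.82 TPM in Ifnar1-SA. Ikzf2, another Treg factor, reached at most 1.975 TPM, so the defining Treg factors were near 0 in cells with that label. Ctla4, Tnfrsf18 and Tnfrsf4 were all above 482 TPM. Ctla4 did not overlap between the genotypes, at 482.4 to 697.6 TPM in WT libraries, compared with 761.9 to 875.9 TPM in Ifnar1-SA. The T cell gene Cd3g did not overlap either (734.4 to 801.1 and 833.3 to 978.4 TPM). Apart from Foxp3, the other T cell and Treg markers listed overlapped. Summed markers of 6 other cell groups (CD8 T and NK cells, B cells, myeloid cells, neutrophils and mast cells, erythroid cells and platelets, stromal and endothelial cells) stayed at or below 19.58 TPM in every library. Summed dendritic cell markers were at 347.7 to 398.6 TPM in WT libraries, compared with 215.8 to 275.3 TPM in Ifnar1-SA, nearly all of it Batf3, while Flt3, Itgax and Siglech stayed at or below 2.95 TPM. The part of these marker differences in the values below was not tested.

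The sequence around the start of transcription shows a pyrimidine run at or near the start of part of these genes. RefSeq start windows (GRCm38.p6, from 250 bases before to 50 after a start) were found for 68 of the 89 symbols, 80 windows in all. The windows below are those of the 4 ribosomal proteins with the largest and the 4 with the smallest spread over the libraries, among those with a mean of at least 100 TPM and a window. Each runs from 45 bases before the start through the first 15 transcribed bases, on the gene's strand, and capitals mark the longest run of C or T that comes within 10 bases of the start.
Rpl38 (chr11:114668535-114668594, plus strand): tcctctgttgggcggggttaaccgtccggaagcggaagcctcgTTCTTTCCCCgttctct
Rps28 (chr17:33824548-33824607, minus strand): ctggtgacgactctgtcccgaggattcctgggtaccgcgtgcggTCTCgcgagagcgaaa
Rps27 (chr3:90213634-90213693, minus strand): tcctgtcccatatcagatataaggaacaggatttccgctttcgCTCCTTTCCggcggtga
Rps25 (chr9:44407669-44407728, plus strand): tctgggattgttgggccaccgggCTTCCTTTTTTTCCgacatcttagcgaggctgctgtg
Rpl11 (chr4:136053379-136053438, minus strand): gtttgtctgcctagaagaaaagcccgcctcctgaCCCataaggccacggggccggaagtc
Rps10 (chr17:27635230-27635289, minus strand): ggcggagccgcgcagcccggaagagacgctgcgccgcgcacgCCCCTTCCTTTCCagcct
Rpl18 (chr7:45718026-45718085, plus strand): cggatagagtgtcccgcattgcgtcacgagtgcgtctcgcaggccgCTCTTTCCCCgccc
Rpl15 (chr14:18270972-18271031, minus strand): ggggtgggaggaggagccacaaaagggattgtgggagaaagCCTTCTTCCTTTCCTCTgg

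The run was 10 bases long at Rpl38, 9 at Rps27 and 14 at Rps25 among the variable genes, and 13 at Rps10, 10 at Rpl18 and 17 at Rpl15 among the steady ones. It was 4 at Rps28 and 3 at Rpl11. At Rps25 and Rpl11 the run ended before the start, so it is not part of the transcript from that start. Over all windows of the members, 31 of 80 (38.75%) held a run of at least 8 bases within 10 bases of the start. This compares with 14.04% of the 21420 windows of all genes in the table. Such a run need not cover the start itself. The core of the ETS factor site, CCGGAAG on either strand, was in 33.75% of the members' windows and 11.55% of all windows. The Sp1 core GGGCGG was in 58.75% and 46.6%, the YY1 core AAGATGGC in 8 of 80 and 3.13%, and the TATA box letters TATAAA in 8 of 80 and 12.2%, each on either strand. The ends of the ETS and YY1 letters can overlap by AAG. These matches are descriptions of letters and not of bound sites.

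Transcripts of the 89 genes made up a large part of all TPM. Their summed share was 16.1%, 15.5% and 19.4% in WT 1, 2 and 3 and 14.1%, 18.2% and 16.9% in Ifnar1-SA 1, 2 and 3. The genotypes overlapped, with means of 17.0% ± 2.11 (SD, n = 3) and 16.4% ± 2.07 (SD, n = 3), a ratio of 0.966. In bulk samples, fewer cells of a type and less RNA per cell cannot be told apart. Small subunit genes took 7.27% ± 1.14 in WT libraries, compared with 7.19% ± 1.13 in Ifnar1-SA, large subunit genes 8.33% ± 0.894 and 7.93% ± 0.808, and the 3 stalk genes 1.14% ± 0.109 and 1.05% ± 0.0991. The 78 genes of the mitochondrial ribosome, which is a separate machine, took 0.827% ± 0.0896 and 0.830% ± 0.0298.

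Although the proteins are needed in equal numbers, the messages were not listed at equal levels. Of the 89 genes, 53 had a mean of at least 1000 TPM, 25 lay between 100 and 1000, 7 between 1 and 100 and 4 below 1. The 10 highest together held 32.9% of the members' sum. The highest mean, 6882 TPM, belonged to Rps29, a small zinc-binding protein of the small subunit's head. Other high means were those of Rpl13 with 6322, Rps27 with 5845, Rps18 with 5405 and Rps28 with 5401 TPM. The spread over the 6 libraries of each of these was wider than the steps between them. Rpl13, a large subunit protein, ran from 5161 to 7636 TPM. The order of the levels was otherwise much alike between libraries, with Pearson's r of log2 values over the 85 tested members of 0.961 to 0.999 in the 15 pairs of libraries. These points share genes and libraries, so r is a description only.

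**Figure D1:**
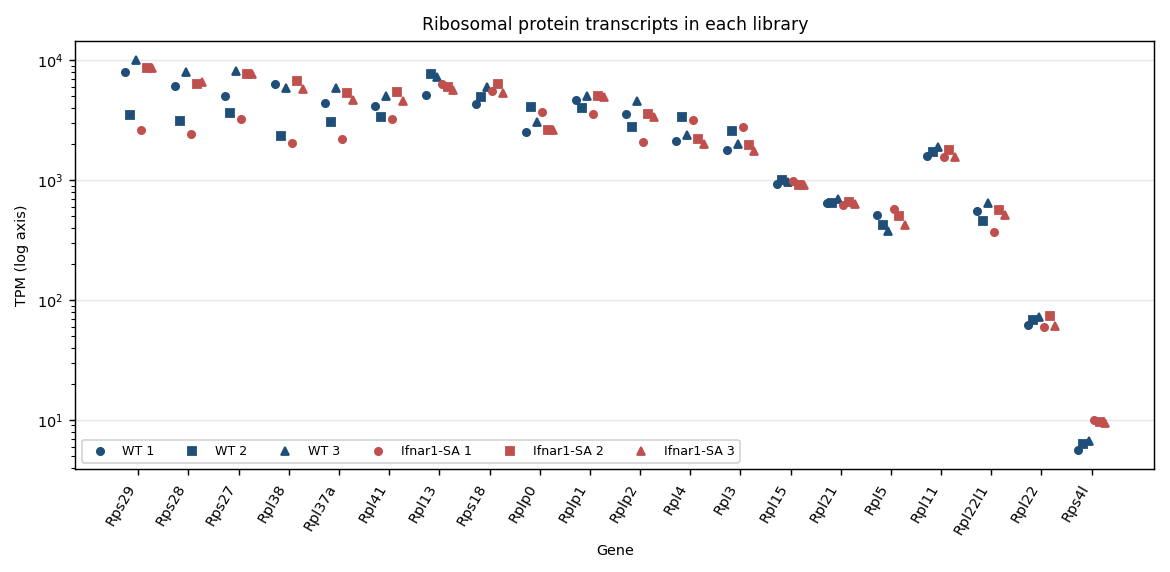
TPM (log axis) of 20 ribosomal protein genes in each library, blue for WT and red for Ifnar1-SA, with the symbol giving the replicate. The 6 genes at the left are lowest in WT 2 and Ifnar1-SA 1, while Rpl4 and Rpl3 are highest there, and Rps4l at the far right is higher in all 3 Ifnar1-SA libraries.

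No ribosomal protein gene passed the test between the genotypes. Of the 89, 85 reached the mean of 1 TPM. Of these 0 had an adjusted p under 0.05 (limma), against 7 of the 12141 genes tested, which is 0.0577%. At an unadjusted p under 0.05 it was 1 of 85, where 3.12% of all genes tested were called. By mean log2 value 28 members were higher and 57 lower in Ifnar1-SA, while 62.9% of all genes tested were lower. The split depended on scaling: with median-of-ratios scaling 49 were higher and 36 lower, and with each library set to the same summed TPM of the members 42 were higher and 43 lower. It was also 49 higher and 36 lower without WT 3, and 44 and 41 without Ifnar1-SA 1. The median log2 difference of the members was −0.05 (range −0.28 to 0.56), beside −0.06 for all genes tested.

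A p that misses the threshold does not show that levels were equal, so the intervals matter. The 95% interval of the difference lay within 2-fold in either direction for 76 of the 85 genes, and within 1.5-fold for 54. Rpl15, among the steadiest, had a log2 difference of −0.05 with an interval of −0.35 to 0.26. The widest interval was that of Rpl37rt, a near-identical copy of Rpl37, from −1.60 to 1.41. Next came short genes such as Rps29, from −1.52 to 1.17. For the other members the interval reached beyond 1.5-fold in at least 1 direction. An interval within 1.5-fold is no limit of detection after adjustment over all genes. In simulated data 36.3% of 2-fold changes passed, so changes of that size could also be missed at this number of libraries.

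**Figure D2:**
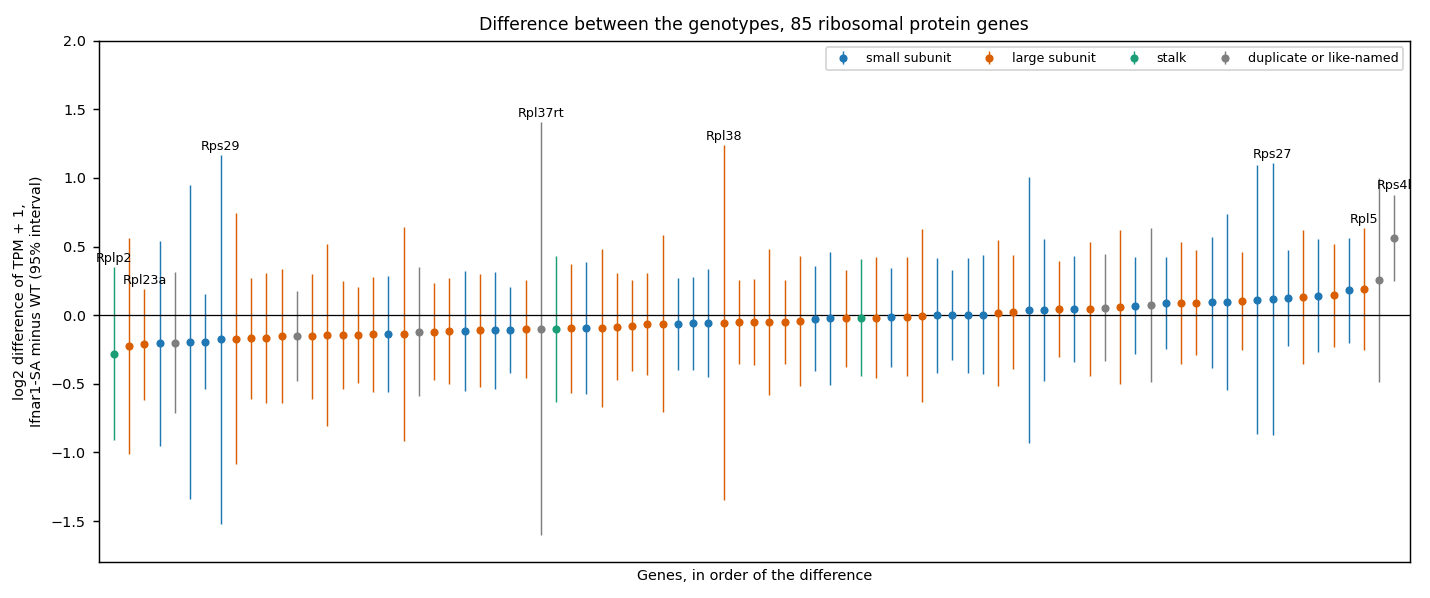
Log2 difference between Ifnar1-SA and WT for the 85 tested genes, in order, with the 95% interval of limma as a bar, the group of each gene as colour and 8 genes labelled. Only the interval of Rps4l, at the right end, leaves out 0, and its adjusted p was 0.8432.

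Among small subunit proteins 13 of 31 were higher and 18 lower, with a median log2 difference of −0.00. Rps23, which lies at the decoding centre, was at 2654, 2812 and 3181 TPM in WT libraries, compared with 2246, 2788 and 2536 TPM in Ifnar1-SA. The Ifnar1-SA 1 library was the lowest and WT 3 the highest, and the genotypes overlapped (log2 difference −0.19 ± 0.15 SE, limma adjusted p = 0.9997). Rps18, in the head of the small subunit, was at 4329, 4919.6 and 5994 TPM in WT libraries, compared with 5518, 6319.7 and 5349 TPM in Ifnar1-SA (log2 difference 0.18 ± 0.16 SE, limma adjusted p = 0.9997). Here WT 1 was lowest and Ifnar1-SA 2 highest.

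Several small subunit proteins are known for links to signalling. Rps6, the protein phosphorylated by the S6 kinases downstream of mTORC1, was at 987, 1255 and 1168 TPM in WT libraries, compared with 1232, 1069 and 1062 TPM in Ifnar1-SA. Rps3, which lines the entry of the messenger RNA and also binds NF-kappaB, was at 568, 677 and 633 TPM in WT libraries, compared with 718, 666 and 589 TPM in Ifnar1-SA. For each the genotypes overlapped and the log2 differences were −0.02 and 0.07. Rps27a, made as a fusion with ubiquitin, was at 877, 667 and 847 TPM in WT libraries, compared with 728, 926 and 733 TPM in Ifnar1-SA. Rpsa, also known as the laminin receptor, was at 1636, 2212 and 1647 TPM and 2413, 1802 and 1671 TPM. Rpsa was highest in WT 2 and Ifnar1-SA 1, the libraries in which Rps27a was lowest. Rps3a1 was at 1833 ± 213 TPM in WT libraries, compared with 1769 ± 254 TPM in Ifnar1-SA (SD, n = 3).

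Among large subunit proteins 11 of 43 were higher and 32 lower, with a median log2 difference of −0.06. Rpl5 and Rpl11 travel with the 5S ribosomal RNA and can bind Mdm2, the inhibitor of p53. Rpl5 was at 512, 421 and 375 TPM in WT libraries, compared with 569.8, 505 and 419 TPM in Ifnar1-SA (log2 difference 0.19 ± 0.19 SE, limma adjusted p = 0.9997). Rpl11 was at 1588, 1699.7 and 1875 TPM in WT libraries, compared with 1547, 1787 and 1562 TPM in Ifnar1-SA, a log2 difference of −0.08. Neither gene separated the genotypes. Rpl13a, which in published work leaves the ribosome to silence messages after interferon-gamma, was at 337, 391 and 508 TPM in WT libraries, compared with 404, 473 and 421 TPM in Ifnar1-SA. Its 3 Ifnar1-SA values lay within the range of the WT values.

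Beside Rpl5, the large subunit genes of smallest p were Rpl23a and Rpl29, both lower in mean log2 value, and Rpl34, higher. Rpl23a, near the exit of the peptide tunnel, was at 3576, 3684 and 4668 TPM in WT libraries, compared with 2903.5, 3709.97 and 3665 TPM in Ifnar1-SA (log2 difference −0.21 ± 0.17 SE, limma adjusted p = 0.9997). Rpl29 was at 1914 ± 234 TPM in WT libraries, compared with 1728 ± 121 TPM in Ifnar1-SA, and Rpl34 at 230.8 ± 31.5 and 254 ± 12.2 TPM (SD, n = 3). All 3 overlapped between the genotypes.

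The stalk, formed by Rplp0 with the small acidic proteins Rplp1 and Rplp2, recruits the elongation factors. Rplp2 (GRCm38 chromosome 7, 141447370 to 141451585, on the plus strand) was at 3558, 2789.9 and 4549.7 TPM in WT libraries, compared with 2096, 3550.1 and 3382 TPM in Ifnar1-SA. Its log2 difference of −0.28 ± 0.27 SE was the lowest of all members (limma adjusted p = 0.9997). The value in Ifnar1-SA 1 was the lowest of the 6 libraries, and the other 2 Ifnar1-SA values lay within the WT range. Rplp1 was at 4615, 3976 and 5036 TPM in WT libraries, compared with 3588, 5035 and 4902 TPM in Ifnar1-SA. Rplp0 went the other way between libraries, with 2529.6, 4059 and 3069 TPM in WT libraries, compared with 3691, 2635 and 2637 TPM in Ifnar1-SA. It was highest in WT 2 and Ifnar1-SA 1, in which Rplp1 and Rplp2 were lowest.

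The spread of these genes over the libraries ran with the length of their coding sequence, over which Spearman's rho with the SD was −0.52 (82 genes, a description). The SD of log2(TPM + 1) over the 6 libraries ranged from 0.060 for Rpl21 to 0.90 for Rpl37rt, with a median of 0.21, beside 0.23 for the 1099 other genes averaging 100 TPM or more. Rps29 (chromosome 12, 69157722 to 69159186, minus strand, coding length 171 bases) had the largest SD of the ribosomal proteins proper, 0.81. It was at 8021, 3486 and 9981 TPM in WT libraries, compared with 2619, 8652 and 8530.3 TPM in Ifnar1-SA. WT 2 and Ifnar1-SA 1 were low, the other 4 libraries were high, and the ratio of the highest to the lowest was 3.81.

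The same libraries were lowest for the other short genes. Rpl38, known for its role in patterning the embryo (chromosome 11, 114668524 to 114672331, plus strand, 213 coding bases), was at 6316, 2351 and 5817 TPM in WT libraries, compared with 2029.9, 6644 and 5720.25 TPM in Ifnar1-SA. Rps28, at the messenger RNA exit (chromosome 17, 33819027 to 33824562, minus strand, 210 coding bases), was at 6031, 3108 and 7986 TPM and 2403, 6363 and 6518 TPM. Rps27, a zinc-binding protein, was at 4985, 3626 and 8042 TPM and 3205, 7605 and 7607 TPM. In each, the values of WT 2 and Ifnar1-SA 1 lay below all others. Rps25, with 378 coding bases, was at 1501, 764 and 1725 TPM in WT libraries, compared with 809, 1829 and 1691 TPM in Ifnar1-SA. Rps21 and Rpl37a, with SDs of 0.56 and 0.54, were also lowest in WT 2 and Ifnar1-SA 1, with ratios of highest to lowest of 2.44 and 2.67.

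Rpl41 has the shortest coding sequence of all members, 78 bases, and is shown whole because it marks the short end of the range (GENCODE M21).
Rpl41: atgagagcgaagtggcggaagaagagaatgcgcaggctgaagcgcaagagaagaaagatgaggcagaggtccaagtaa

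Rpl41 was at 4152, 3376 and 5051 TPM in WT libraries, compared with 3243, 5453 and 4540.4 TPM in Ifnar1-SA, and Rpl39, with 156 coding bases, at 2389, 1656 and 2837 TPM and 1285, 2682 and 2446 TPM. Both were lowest in WT 2 and Ifnar1-SA 1, with ratios of highest to lowest of 1.68 and 2.21. The 2 shortest coding sequences thus did not have the largest spread. Their transcripts were not the shortest, with 544 bases for Rpl41 and 612 for Rpl39. Those of Rps29, Rps28 and Rpl38 had 390, 382 and 364 bases, and that of Rps25 had 577. Whether the spread ran with transcript length was not tested.

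The longest members went the other way. Rpl4, which reaches into the peptide tunnel and has 1260 coding bases, was at 2124, 3349.8 and 2359 TPM in WT libraries, compared with 3145, 2185 and 2013 TPM in Ifnar1-SA. Rpl3, near the peptidyl transferase centre with 1212 coding bases, was at 1771, 2563 and 1994 TPM in WT libraries, compared with 2756, 1956 and 1743 TPM in Ifnar1-SA. WT 2 and Ifnar1-SA 1 were the highest libraries for both, as for Rplp0 with 954 coding bases.

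Between these ends lay the steady genes. Rpl21 was at 642, 638 and 701 TPM in WT libraries, compared with 623, 654 and 633 TPM in Ifnar1-SA. Rpl15 was at 923, 1003 and 959.5 TPM and 985, 902 and 905 TPM. Rpl18 and Rps10, the next in order of spread among genes of at least 100 TPM, had SDs of 0.097 and 0.11. These 4 genes have coding lengths of 483, 615, 567 and 498 bases.

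**Figure D3:**
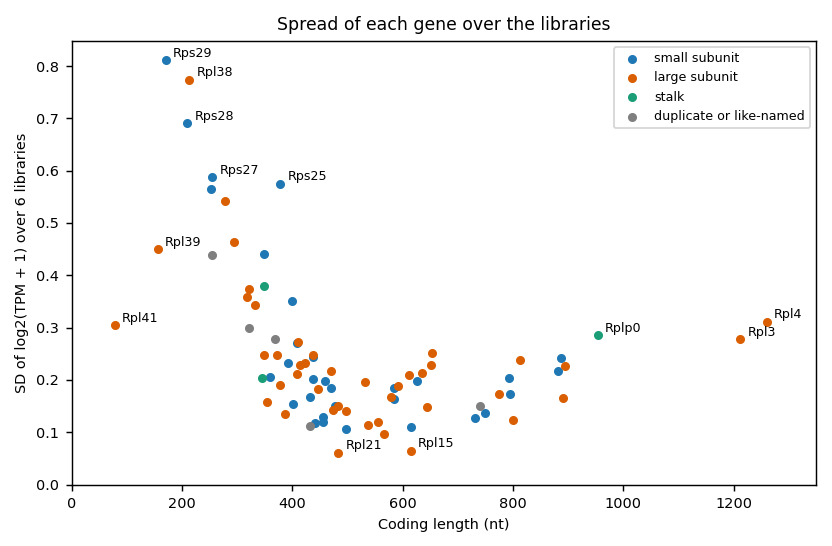
SD of log2(TPM + 1) over the 6 libraries against coding length for 82 tested ribosomal protein genes, coloured by group. The spread is largest, up to 0.81 at Rps29, among short genes, lowest near Rpl21 and Rpl15, and higher again at Rplp0, Rpl3 and Rpl4.

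Counted over the 82 tested members with a coding length, WT 2 and Ifnar1-SA 1 held the lowest values in 10 of 10 genes under 300 coding bases and in 21 of 30 genes from 300 to under 450. The count was 4 of 19 genes from 450 to under 600 bases, 1 of 20 from 600 to under 900, and 0 of 3 with 900 or more. They held the highest values in 0 of 10, 1 of 30, 3 of 19, 14 of 20 and 3 of 3 genes of these classes. In log2 units, the median deviation of genes under 300 bases from their own mean over the libraries was 0.21, −0.61 and 0.47 in WT 1, 2 and 3 and −0.78, 0.44 and 0.28 in Ifnar1-SA 1, 2 and 3. For the 20 genes from 600 to under 900 bases it was −0.15, 0.19 and 0.02 in WT and 0.14, −0.06 and −0.17 in Ifnar1-SA.

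Spearman's rho between this deviation and coding length, over the 82 genes, was 0.81 in WT 2 and 0.85 in Ifnar1-SA 1. It was −0.63 in WT 1, −0.71 in WT 3, −0.74 in Ifnar1-SA 2 and −0.83 in Ifnar1-SA 3. Since each deviation is taken from the mean of the same 6 libraries, these values are not independent of each other, and genes are not replicates. Other coding genes averaging 100 TPM or more, 1005 in number, had rho of 0.52 in WT 2, 0.65 in Ifnar1-SA 1 and −0.19 to −0.61 in the other 4. Their median deviation under 300 coding bases was −0.45 in WT 2 and −0.32 in Ifnar1-SA 1, over 100 genes. Low values of short genes in WT 2 and Ifnar1-SA 1 were thus also seen outside the ribosome, and whether their size differed was not tested. Rn4.5s, a short RNA that is no member, was at 20882, 3846 and 15183 TPM in WT libraries, compared with 2978, 14249 and 17829.9 TPM in Ifnar1-SA, also lowest in WT 2 and Ifnar1-SA 1.

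**Figure D4:**
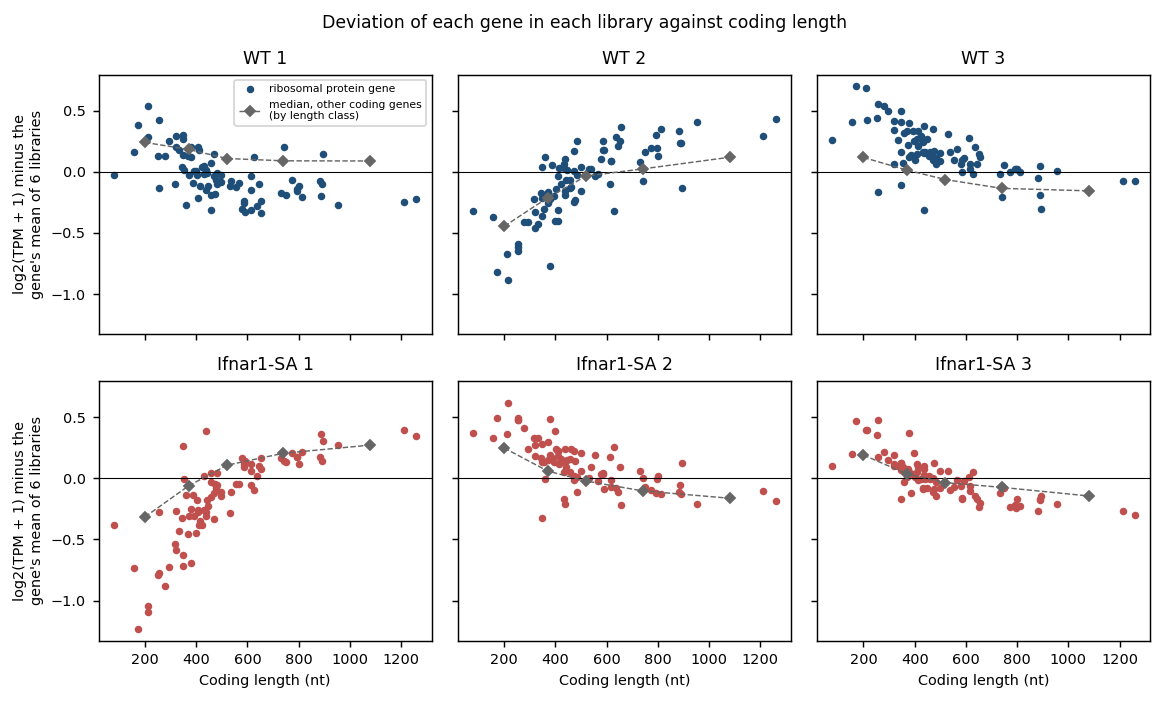
Deviation of log2(TPM + 1) from the gene's mean over the 6 libraries against coding length, 1 panel per library, with ribosomal protein genes as points and medians of other coding genes of at least 100 TPM as grey diamonds, placed at 1 point per length class. The 10 genes under 300 coding bases lie lowest in WT 2 and Ifnar1-SA 1, with medians of −0.61 and −0.78, and have medians above 0 in the other 4 libraries.

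Each genotype held 1 of these libraries, so the length pattern did not separate WT from Ifnar1-SA. With both left out, a setting chosen with the pattern known, 0 members passed the test, 34 were higher and 51 lower, and the median log2 difference was −0.03 beside −0.08 for all genes. The ratio of summed TPM was then 0.989. With all 6 libraries, members under 300 coding bases had a median log2 difference of −0.10, and those from 600 to under 900 bases −0.04.

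Rps4l was the member with the smallest p. It is a retrocopy of Rps4x (GRCm38 chromosome 6, 148354656 to 148355598, plus strand), annotated as a transcribed processed pseudogene in GENCODE M21 and as a transcribed pseudogene in RefSeq. It was at 5.63, 6.35 and 6.67 TPM in WT libraries, compared with 10.01, 9.56 and 9.38 TPM in Ifnar1-SA. Every Ifnar1-SA library lay above every WT library, which held for 1.97% of all genes tested. The log2 difference was 0.56 ± 0.13 SE (unadjusted p = 0.00389), and it did not pass over all genes (limma adjusted p = 0.8432). It was 0.50 to 0.63 under the 20 other settings tried, with adjusted p of 0.2681 to 1.0. Rps4x, its X-linked parent gene in the small subunit, was at 1682, 2305 and 1904 TPM in WT libraries, compared with 2119, 1725 and 1608 TPM in Ifnar1-SA, with overlap. The aligned sequences of Rps4l and Rps4x were identical at 632 of 789 bases (80.1%).

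In all, the genotypes did not overlap for 2 of the 85 tested members, where 5.77% of all genes tested had no overlap. The other was Rps19bp1, at 69.6, 68.97 and 75.5 TPM in WT libraries, compared with 68.5, 60.04 and 63.7 TPM in Ifnar1-SA, with a gap between the groups of less than 1 TPM (log2 difference −0.15 ± 0.14 SE, limma adjusted p = 0.9997). Every Ifnar1-SA library lay below every WT library for 3.8% of all genes tested. Rpl7l1, a relative of Rpl7, was at 73.6 ± 11.02 TPM in WT libraries, compared with 75.999 ± 5.70 TPM in Ifnar1-SA, and Rpl7 at 2491 ± 502 and 2321 ± 384 TPM (SD, n = 3).

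Duplicated ribosomal protein genes were listed at very different levels. Rpl22l1, the paralog of Rpl22, was at 555, 453 and 641 TPM in WT libraries, compared with 370.1, 563 and 510.4 TPM in Ifnar1-SA. Rpl22 itself, known for its role in alpha-beta T cell development, was at 61.7, 68.3 and 72.3 TPM in WT libraries, compared with 59.6, 73.8 and 60.3 TPM in Ifnar1-SA. On this length-corrected scale the paralog was above the parent in every library. Their coding sequences matched at 259 of 369 aligned bases (70.2%). Rpl36al was at 1392 ± 351 TPM in WT libraries, compared with 1446 ± 250.3 TPM in Ifnar1-SA, beside 1396 ± 320.4 and 1278 ± 368 TPM for Rpl36a (SD, n = 3), with 87.9% identity between them.

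Rps27l, which is also a p53 target, stood far below Rps27. It was at 381, 181 and 253 TPM in WT libraries, compared with 234, 394 and 320.35 TPM in Ifnar1-SA. The coding sequences of this pair have the same length, 255 bases, and differ at 61 of them. They are printed to show that the differences, in capitals, are spread along the whole sequence (GENCODE M21, from the start codon).
Rps27: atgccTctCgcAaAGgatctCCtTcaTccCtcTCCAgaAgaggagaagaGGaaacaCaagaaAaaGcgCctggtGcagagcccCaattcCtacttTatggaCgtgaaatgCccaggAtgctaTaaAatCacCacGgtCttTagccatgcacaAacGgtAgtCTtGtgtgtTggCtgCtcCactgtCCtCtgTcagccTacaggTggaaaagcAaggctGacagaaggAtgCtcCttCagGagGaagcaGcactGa
Rps27l: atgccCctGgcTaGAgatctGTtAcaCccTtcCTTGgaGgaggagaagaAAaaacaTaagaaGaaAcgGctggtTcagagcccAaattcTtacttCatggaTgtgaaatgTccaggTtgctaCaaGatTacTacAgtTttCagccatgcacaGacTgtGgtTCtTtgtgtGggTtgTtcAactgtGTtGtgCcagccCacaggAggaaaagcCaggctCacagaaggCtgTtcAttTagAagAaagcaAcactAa

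Rps27rt and Rpl37rt were nearly or fully identical to their parents. Rps27rt has a coding sequence identical to that of Rps27 and was listed at 0 in all 6 libraries. Rpl37rt differs from Rpl37 at 1 of 294 aligned bases and was at 91.3, 46.5 and 129 TPM in WT libraries, compared with 28.5, 139.7 and 111 TPM in Ifnar1-SA, beside 770.4 ± 230.3 and 664 ± 216 TPM for Rpl37 (SD, n = 3). Rpl32l, 97.2% identical to Rpl32 over 399 bases, was at 1.77 ± 0.408 and 1.54 ± 0.376 TPM, far below Rpl32 at 3727 ± 635 and 3679 ± 567 TPM. Reads of such pairs can be assigned to either copy, so these levels are uncertain. The paralogs Rpl3l, Rpl10l and Rpl39l, known from muscle or testis, were under the expression filter, at no more than 0.0912, 0.341 and 0.741 TPM. Their parents Rpl3, Rpl10 and Rpl39 had means of 2130.4, 2387 and 2216 TPM. The values of Rpl39l were 0.512, 0.691 and 0.247 TPM in WT libraries, compared with 0.697, 0.725 and 0.741 TPM in Ifnar1-SA, apart between the genotypes, but below the filter and not tested.

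Near-identical copies also bore on the level of some ribosomal proteins proper. The mouse genome holds many retrocopies of these genes: 80 of the 89 members had at least 1 other GENCODE M21 gene with 95% identity over 90% of the query, and Rpl21 had 56. For 19 members such a copy was itself in the table. Rpl30, a large subunit protein, was listed at a mean of 144.5 TPM, while Gm12191, 99.7% identical to its coding sequence, was at 2252 TPM. Their sum of 2397 TPM is 16.6 times the value of Rpl30 alone. Rpl34 went from 242 to 1164 TPM with Rpl34-ps1 added, Rpl26 from 445 to 1610.4 TPM with Gm15772, and Rpl31 from 425 to 1030.3 TPM with Rpl31-ps12. Rps15a had the lowest mean of the ribosomal proteins proper, 35.9 TPM, and reached 172 TPM with its 2 copies.

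Adding copies left the genotypes unseparated. For Rpl30 the sum was 2543, 1792 and 2989 TPM in WT libraries, compared with 1659, 2779 and 2618 TPM in Ifnar1-SA, a log2 difference of −0.06 in place of −0.16. For Rpl34 it was 1277, 765 and 1362 TPM in WT libraries, compared with 813, 1459 and 1308 TPM in Ifnar1-SA. With the copies added, both genes were lowest in WT 2 and Ifnar1-SA 1, as were 21 of the 30 members from 300 to under 450 coding bases, which Rpl30 alone was not: its own values were 176, 147 and 132 TPM in WT libraries, compared with 171, 114 and 127 TPM in Ifnar1-SA.

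**Figure D5:**
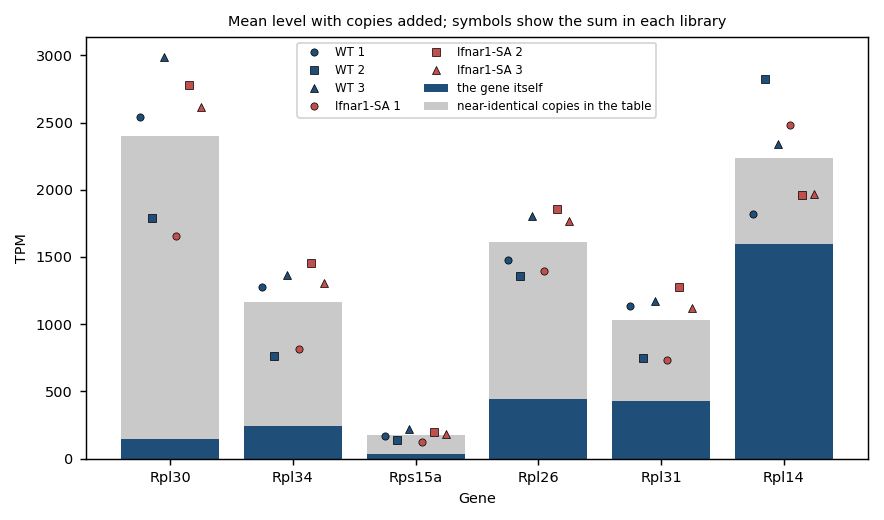
Mean TPM over the 6 libraries of 6 ribosomal protein genes (blue bars) and of their near-identical copies in the table (grey bars on top), with symbols for the sum in each library. Most of the summed level of Rpl30, Rpl34, Rps15a, Rpl26 and Rpl31 stands in the copies, and less of that of Rpl14.

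The other genes of ribosome production and translation gave the same count of calls. None of the 7 lists had a member past the threshold (limma), where 0.0577% of all genes tested passed. At an unadjusted p under 0.05 it was 0 of their members, where 3.12% of all genes tested were called. Fau apart, the genes given by value are from the 2 of smallest p in each list, so they are not typical of it. Of 24 translation factors and related messages, 10 were higher and 14 lower, with a median log2 difference of −0.01. Fau, the fusion of a small subunit protein, was at 1503 ± 239 TPM in WT libraries, compared with 1521 ± 188 TPM in Ifnar1-SA (SD, n = 3). Eif2s3x, a subunit of initiation factor 2, had the smallest p of this list, at 35.2 ± 2.97 and 29.3 ± 3.27 TPM.

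Beside the splits of these lists, 62.9% of all genes tested were lower, with a median log2 difference of −0.06. Every Ifnar1-SA library lay below every WT library for 3 of 19 mTORC1 and MYC genes and 2 of 6 p53 response genes. It was 1 of 24 translation factors, 1 of 16 RNA polymerase I genes and 1 of 10 host genes of small nucleolar RNAs. It was 0 for assembly factors and chaperones. The reverse held for 1 of the mTORC1 and MYC genes. Of all genes tested, 3.8% lay below and 1.97% above. Those below included Eif2s3x, Ttf1, Gas5, Max, Eif4ebp1, Cdkn1a and Mdm2. Whether the split of any list changed with scaling was not tested. Of 36 ribosome assembly factors 18 were higher and 18 lower, with a median of 0.00. Pes1, a factor of large subunit assembly, was at 32.1 ± 6.52 TPM in WT libraries, compared with 39.6 ± 10.5 TPM in Ifnar1-SA, and Nop10, of the RNA-modifying H/ACA particles, at 254 ± 76.3 and 305 ± 46.03 TPM. Of 16 genes of RNA polymerase I and its factors 4 were higher and 12 lower (median −0.05). Ttf1, which ends ribosomal RNA transcription, was at 11.99 ± 1.05 and 9.96 ± 0.0934 TPM, and Rrn3, an initiation factor, at 14.003 ± 2.05 and 12.04 ± 2.14 TPM. Of 9 genes for chaperones and their relatives that accompany new ribosomal proteins 1 was higher and 8 lower (median −0.05). Pdcd2, which escorts Rps2, was at 40.8 ± 7.62 and 33.5 ± 8.76 TPM, and its relative Pdcd2l at 34.5 ± 4.18 and 27.5 ± 5.94 TPM.

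Of 10 host genes of small nucleolar RNAs, whose spliced transcripts also begin with pyrimidines in several cases, 3 were higher and 7 lower (median −0.12). Gas5 was at 291 ± 31.4 TPM in WT libraries, compared with 245 ± 17.1 TPM in Ifnar1-SA, and Snhg6 at 152 ± 38.06 and 121 ± 27.9 TPM. Of 19 genes of mTORC1 and MYC control 7 were higher and 12 lower (median −0.08). Max, the partner of MYC, was at 17.8 ± 1.82 and 13.8 ± 1.03 TPM, and Eif4ebp1, a translation repressor that mTORC1 inhibits, at 1027 ± 119 and 793 ± 120.2 TPM (limma adjusted p = 0.9997 for each). Of 6 genes of the p53 response to ribosome stress 1 was higher and 5 lower (median −0.25). Cdkn1a, the cell cycle inhibitor, was at 1035 ± 156 and 794 ± 24.9 TPM, and Mdm2 at 31.9 ± 4.23 and 25.1 ± 2.53 TPM (limma adjusted p = 0.9997 for each). Genes of the mitochondrial ribosome, 78 in all, had 43 higher and 35 lower, a median log2 difference of 0.01 and 0 past the threshold.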

How the data were processed

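TPM per gene and library were deposited by the authors in 1 table of 24493 symbols and 6 columns, each matched by name to 1 sample title. Salmon and the builds mm10 and GRCm38 are named in the submitters' processing notes. Its version, the annotation and any read filter are not stated in the labels. Members and lists were chosen with earlier results of these data known.

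log2(TPM + 1) was tested with limma 3.58.1 (R 4.3.3, intensity trend, two-sided, no block) for the 12141 genes whose mean TPM was 1 or more. Tested on simulated data for this comparison (12141 genes, 200 changed, 10 runs), the power was 36.3% at 2-fold and 86.1% at 4-fold, and 4.32% of calls were false. The simulated noise was independent between genes, and only genes above a set mean level were changed. Deviations shared by many genes, such as the length pattern, and changes of low genes were therefore not covered. Folds on this scale understate changes of low genes.

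Genes were named by a fixed rule: the 6 highest means, the 8 largest and 4 smallest SDs, and the 6 smallest p per direction. It also took stalk and duplicated genes with their parents, Rpsa, Rpl5, Rpl11, Rpl13a, Rps6, Rps3 and Rps27a. From each pathway list it took the 2 genes of smallest p. Some genes this rule names are not reported here. Rpl41, Rpl39, Rpl4, Fau, Rn4.5s, Batf3 and the genes with copies were chosen after their values were seen. Coding lengths (principal transcript, stop codon included) and positions are from GENCODE M21 (GRCm38), copies from BLAST 2.17.0. Sums, tables and figures used Python 3.11.15 with scipy 1.17.1, pandas 2.3.3, matplotlib 3.10.9 and numpy 2.4.6. Alternatives were pseudocounts of 0.1 and 0.5, other filters, scalings and variance settings, a replicate block, and leaving out libraries.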

Additional observations from a re-analysis of the deposited data

How the results depend on the processing

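The count of ribosomal protein genes past the threshold was 0 in each setting tried, among them 2 chosen after seeing the data, in which the pair WT 2 and Ifnar1-SA 1 had its own term or was left out, with a lowest adjusted p (limma) of 0.2681 with array weights. The median log2 difference was −0.097 to 0.021 when each library was left out in turn, 0.01 with median-of-ratios and −0.07 with quantile scaling. The ratio of summed TPM was 0.915 to 1.04 when each library was left out in turn and 1.02 with median-of-ratios scaling. These values moved by less than the spread between libraries. Of the recomputed differences of named genes, 957 moved by less than that too and 2 by more, Rpl21 with median-of-ratios (0.01) and quantile scaling (−0.14), and 0 passed the threshold. With no filter on low values, 89 members were tested and 29 were higher and 59 lower.

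Over all genes, the number past the threshold was 7, and it was 0 with no filter, with a replicate block and without that pair, and 28 at most, without WT 1. Without WT 1, Rpl13 joined Rps4l among members with an unadjusted p under 0.05 (0.0433). The labels do not say whether libraries with the same replicate number belong together. Deviations of same-numbered libraries from their genotype means correlated at −0.11, −0.11 and 0.15. The largest correlation, 0.25, was between WT 2 and Ifnar1-SA 1. Deviations from means of 3 libraries depend on each other and hold the length pattern, so these correlations cannot decide whether replicates were paired. With the replicate block, 0 members passed and the median log2 difference of the members was −0.05, as without it. Without counts, the depth behind low values such as those of Rps4l is unknown.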
